A study of Mus musculus with 29 samples.

Results

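The regions described here are stretches of chromatin that passed from one transcription-associated state to another within 4 h of macrophage activation. In a deposited map that gives each 200 bp step of the mouse genome 1 of 27 chromatin states, they are the steps labelled state 11 in untreated cells and state 4 after 4 h of lipopolysaccharide (LPS). On chromosomes 1 to 19 and X, 28946 of 13194954 steps met this rule, which is 5.79 Mb of 2639 Mb. Neighbouring steps were joined, giving 9016 regions. The untreated and 4 h labels chose the members, so values at those 2 times are given as a description and nothing is supported with them. The map of LPS 1 h, the PU.1 list and the flavopiridol lists were not part of the rule, although the sources used here do not say which libraries the maps were made from.

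The cells were RAW264.7, a mouse macrophage-like line transformed by Abelson leukaemia virus. LPS, the bacterial cell wall component sensed by Toll-like receptor 4, was given at 100 ng/ml for 1 h or 4 h, and H3K4me1, H3K4me3, H3K27ac, H3K27me3, H3K36me2, H3K36me3 and H3K79me2 were mapped by chromatin immunoprecipitation and sequencing at both times and in untreated cells. Flavopiridol, which inhibits the elongation kinase CDK9, was given for 1 h, without LPS or ahead of 4 h of LPS, and only H3K4me1 and H3K36me2 were mapped with it, while the transcription factor PU.1 was mapped only in untreated cells. Of 29 samples, 26 have a peak list, each mark has 1 library per condition, and the 3 input samples have none. No spread between cultures can therefore be measured and no p-value is given. The depth of each library is unknown, and every difference below is between single libraries. A mark present in a share of the cells and a weaker mark in all of them cannot be told apart in such bulk chromatin.

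H3K79me2 is deposited by DOT1L in the first part of transcribed genes. H3K36me3 is deposited by SETD2, which travels with elongating RNA polymerase II, and builds up toward the 3′ end of genes. H3K36me2, the product of NSD enzymes and ASH1L, spreads more widely, over intergenic chromatin as well as genes, and H3K4me3 marks active promoters.

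States 11 and 4 were both H3K79me2 states without promoter mark, and differed mainly in the 2 methylations of H3K36. Over all untreated state 11 steps, peaks of H3K79me2 covered 99.2% of the length, H3K36me2 79.2%, H3K36me3 55.4% and H3K4me1 39.7%. Over untreated state 4 steps the same marks covered 99.8%, 99.8%, 33.5% and 46.2%. The states were each other's nearest neighbours in mark coverage, at a distance of 30.8 percentage points over the 7 marks (square root of the summed squares). Each of these 2 numbers lay nearest to itself at the other times, at 9.20 points for state 11 at 1 h and 11.9 at 4 h, and at 9.80 and 7.19 for state 4. On that basis these 2 state numbers were compared across maps. Over the state 11 steps of each later map, H3K36me3 of the same time covered 58.7% at 1 h and 65.3% at 4 h. Whether the border between the 2 states shifted between maps was not tested. The other state numbers were not matched in this way, so counts that use them take the deposited labels at face value.

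The exchange between the 2 states ran mostly one way. Of 71639 untreated state 11 steps, 40.4% were in state 4 at 4 h and 38.1% were still in state 11. The next destinations were state 12 with 5.41%, state 1 with 4.38% and state 7 with 3.55%. For background, 12.2% of all steps and 30.3% of steps outside state 27 had another state at 4 h, as had 61.9% of state 11 and 18.7% of state 4. By deposited label, the move from 11 to 4 took the highest share of its starting state among the 702 ordered pairs of different states. It was ahead of 26 to 1 with 36.6% and 3 to 2 with 33.0%. The reverse move took 1514 of 49035 untreated state 4 steps, or 3.09%, so that 19.1 steps went from 11 to 4 for each that went from 4 to 11. The same 2 maps chose the members, and the ranking was made with the data in view. This rank and this ratio are therefore descriptions only. Between the untreated and 1 h maps the counts were 24673 and 2677, a ratio of 9.22, and between the 1 h and 4 h maps 13318 and 6020, a ratio of 2.21.

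The length in state 4 was 9.81 Mb before LPS, 18.5 Mb after 1 h and 18.4 Mb after 4 h, so that the difference from untreated cells was already present at 1 h. State 11 spanned 14.3, 10.9 and 9.93 Mb at the same times. Of all state 4 steps at 4 h, 43.2% had been in state 4 and 31.4% in state 11 before LPS, and 0.398% of all steps outside state 4 before LPS were in it at 4 h. The move was found on each chromosome used: the share of state 11 steps in state 4 at 4 h was 27.8% on X and 36.4% to 48.5% on the autosomes, with chromosome 13 highest, and the count of 11 to 4 over 4 to 11 steps was 12.9 to 29.6.

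The moved stretches were short. Their median length was 400 bp and the mean 642 bp, with a range of 200 to 7200 bp. A single step made up 2864 regions (31.8%), 1920 regions (21.3%) reached 1 kb and 75 reached 3 kb. The regions of at least 1 kb held 49.9% of the moved length. Regions that stayed in state 11 also had a median of 400 bp, whereas those that stayed in state 4 had a median of 800 bp and those that went from 4 to 11 a median of 200 bp and a longest of 1600 bp. Joining across gaps of 200 bp or 1 kb brought the median of the moved regions to 600 bp.

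**Figure D1:**
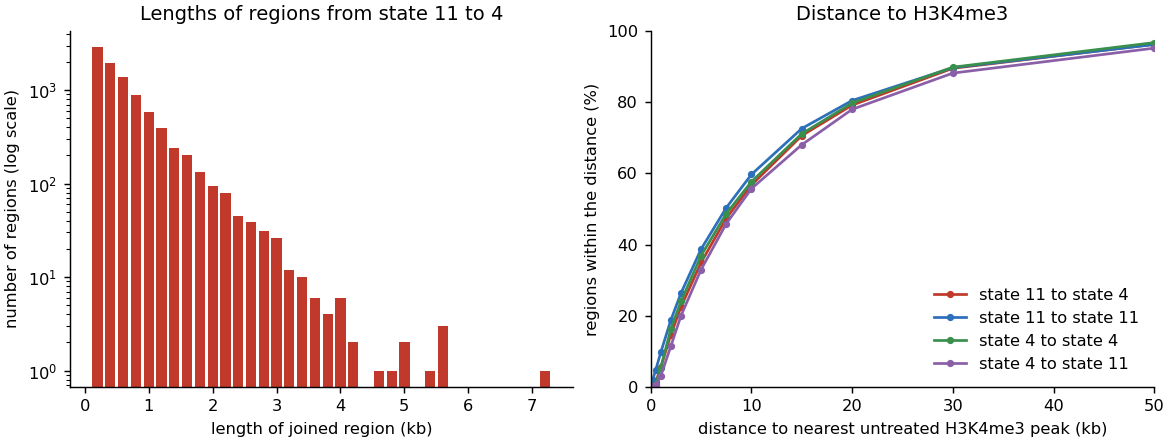
Left, number of joined regions that went from state 11 to state 4 (log axis) by length in kb; the counts drop from 2864 regions of 200 bp to 1 region of 7200 bp. Right, percent of joined regions within a given distance (kb) of the nearest untreated H3K4me3 peak, for 4 sets of regions; 34.9% of the regions that went from 11 to 4 and 38.7% of those that stayed in state 11 lay within 5 kb.

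Most moved steps had made the change by 1 h. At LPS 1 h, 17698 member steps (61.1%) were in state 4 and 8857 (30.6%) were still in state 11. State 12 held 3.77%, state 1 held 1.69% and state 6 held 1.33%. Steps that were in state 11 both before LPS and at 4 h were in state 4 at 1 h in 14.4% of cases and in state 11 in 68.6%. Steps in state 4 at both ends were in state 4 at 1 h in 91.3%, and steps that went from 4 to 11 in 52.9%. Of the 9016 moved regions, 4319 (47.9%, 95% Wilson interval 46.9 to 48.9) lay wholly in state 4 at 1 h and 1817 (20.2%, 19.3 to 21.0) wholly in state 11. A further 1475 (16.4%) held both and no other state, and 1405 (15.6%) held some other state. These intervals cover counting error only.

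Read forward in time, 34.4% of untreated state 11 steps were in state 4 at 1 h. Of those, 71.7% were in state 4 at 4 h and 16.0% were back in state 11. Among the 32654 steps still in state 11 at 1 h, 27.1% were in state 4 at 4 h. The early move was thus kept in most steps, and a smaller share followed between 1 h and 4 h.

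**Figure D2:**
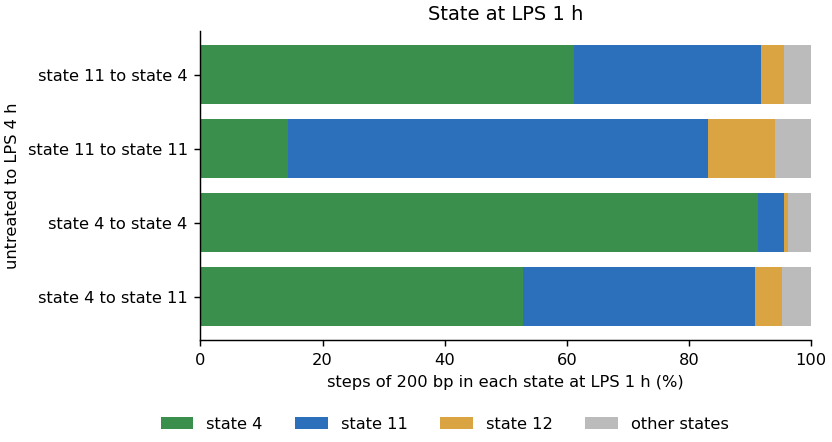
Percent of 200 bp steps in state 4, state 11, state 12 or any other state at LPS 1 h, for 4 sets of steps named by their untreated and LPS 4 h states. Steps that went from 11 to 4 were in state 4 at 1 h in 61.1% of cases, against 14.4% of steps in state 11 at both ends.

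The moved chromatin was almost wholly covered by H3K79me2 and nearly so by H3K36me2 before LPS, so that most of the moved length was inside a peak of both marks at the start. H3K79me2 covered 99.9% of it before LPS, 99.9% at 1 h and 99.97% at 4 h. H3K36me2 covered 95.4%, 99.0% and 99.8%. H3K36me3 covered 47.4%, 49.3% and 44.6%. With all deposited peaks, the difference between LPS 4 h and untreated cells was 4.39 points for H3K36me2. With only peaks whose −log10 q was 5 or more, H3K36me2 covered 5.83%, 19.8% and 31.5% of the moved length, H3K79me2 82.5%, 85.0% and 85.2%, and H3K36me3 27.3%, 30.6% and 21.5%. With that minimum H3K36me2 covered 0.734%, 2.52% and 4.27% of the genome. Over the whole genome used, H3K36me2 covered 10.7%, 12.1% and 13.2%, H3K79me2 3.84%, 4.09% and 4.20%, and H3K36me3 9.40%, 9.49% and 9.18%. Of the 23 member steps with under 100 bp in an untreated H3K79me2 peak, 15 were covered at 1 h and 21 at 4 h, against 0.467% and 0.567% of all uncovered steps. Among such steps that stayed in state 11, 137 and 166 of 208 were covered, and among those that stayed in state 4, 6 and 9 of 19. Of 28923 covered member steps 27 and 4 were uncovered, against 5.3% and 4.83% of all covered steps. All state 4 steps of 4 h were 99.9% covered by H3K79me2, so the 4 h counts of members follow largely from the rule. The 1 h counts are of the same chosen steps and are not independent of it.

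Moved steps lay between the 2 sets that kept their state. H3K36me2 covered 66.4%, 80.9% and 84.2% of the steps that stayed in state 11, and 99.9% of those that stayed in state 4 at each time. For H3K36me3 the values were 60.4%, 62.4% and 58.0% in steps that stayed in state 11 and 32.9%, 32.6% and 29.6% in steps that stayed in state 4. At 1 h, a time the rule did not use, the moved steps with 99.0% of H3K36me2 were nearer to state 4, and with 49.3% of H3K36me3 about midway. They already lay so in untreated cells, with 95.4% and 47.4%, so these 1 h positions are not independent of the rule. The 18-state map is also of untreated cells, so its labels are a description and not independent of the rule. In that map 74.9% of member steps were in state 8 and 22.7% in state 3, against 93.2% and 4.23% of steps that stayed in state 11, while 99.8% of steps that stayed in state 4 were in state 3.

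**Figure D3:**
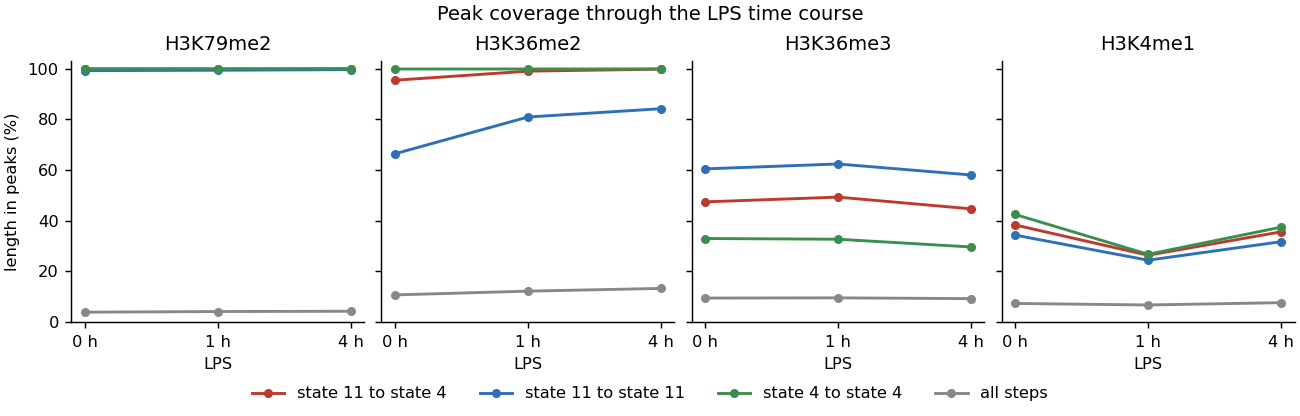
Percent of length inside peaks of H3K79me2, H3K36me2, H3K36me3 and H3K4me1 in untreated cells (0 h) and after 1 h and 4 h of LPS, for steps that went from state 11 to 4, steps that kept state 11 or 4, and all steps; each point is 1 library. For H3K36me2 the moved steps went from 95.4% to 99.8% and for H3K36me3 they lay between the 2 sets that kept their state.

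Where H3K36me2 was missing before LPS, it was mostly present after it. Members were chosen as state 4 at 4 h, and all state 4 steps of that time were 99.9% covered by H3K36me2. The 4 h shares of members below therefore follow largely from the rule. The 1 h shares are of the same steps, chosen by their 4 h state, so they are not independent of the rule either. Of 1314 member steps with under 100 bp in an untreated H3K36me2 peak, 1177 (89.6%) had at least 100 bp covered at 1 h and 1284 (97.7%) at 4 h. Among all uncovered steps of the genome the shares were 2.46% and 3.39%, and among uncovered steps that stayed in state 11 they were 54.2% and 61.4%. The 1 h share in steps that stayed in state 11 shows that a gain of H3K36me2 was also common in state 11 chromatin that did not move. Of the 27632 covered member steps, 134 (0.485%) were uncovered at 1 h and 7 (0.0253%) at 4 h, against 6.64% and 4.31% of all covered steps.

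By region, 8519 of 9016 (94.5%) had H3K36me2 over at least 50% of their length at all 3 times. Another 394 (4.37%) had it at 1 h and 4 h only, and 43 at 4 h only. Regions with no H3K36me2 at all numbered 247 before LPS, 56 at 1 h and 6 at 4 h. The region at chr11:3553001-3556000 is the longest without H3K36me2 after flavopiridol and LPS. It spans 15 steps, had no H3K36me2 in untreated cells, was covered to 100% at 1 h and 4 h, and lay wholly in state 4 at 1 h. Its H3K36me3 coverage was 78.4%, 55.7% and 39% at the 3 times.

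The H3K36me2 peaks over these steps were also wider after LPS. The median width of the peak that covered a member step was 14452 bp before LPS, 19034 bp at 1 h and 21573 bp at 4 h. For steps that stayed in state 11 it was 10457.5, 13505 and 15037 bp, and for steps that stayed in state 4 it was 20412, 26097 and 28863 bp. Over all covered steps it was 12405, 15796 and 18698 bp, so wider peaks at later times were not limited to the moved steps. Of the covered member length, peaks whose deposited −log10 q was 5 or more held 6.11% before LPS, 19.9% at 1 h and 31.6% at 4 h, beside 6.89%, 20.7% and 32.3% of all covered length. The part of these genome-wide shifts of the H3K36me2 lists in the change of state was not tested.

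H3K36me3 was both gained and lost over the moved steps. Gains outnumbered losses at 1 h (2969 and 2428 steps), and losses outnumbered gains at 4 h (3521 and 2728 steps). In untreated cells 3944 regions (43.7%) had none of it, 3685 (40.9%) lay wholly inside its peaks and 1387 (15.4%) partly. Over at least 50% of their length, 2924 regions (32.4%) had it at all 3 times and 3462 (38.4%) at none. Of the 15221 steps without it, 19.5% were covered at 1 h and 17.9% at 4 h, against 0.761% and 0.741% of all uncovered steps. Of the 13725 covered member steps, 17.7% were uncovered at 1 h and 25.7% at 4 h, against 6.4% and 9.55% of all covered steps. Steps that stayed in state 11 showed gains of 22.6% and losses of 11.6% at 1 h, and steps that stayed in state 4 gains of 12.8% and losses of 26.7%. At 4 h the gains and losses were 21.4% and 18.1% in the former and 12.6% and 35.6% in the latter. The H3K36me3 peaks over member steps had a median width of 9196 bp in untreated cells, against 21266 bp over all covered steps.

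The enhancer-associated mark H3K4me1 dipped at 1 h over the moved steps. It covered 38.3% of them before LPS, 26.3% at 1 h and 35.6% at 4 h. Of 11065 covered member steps 43.1% were uncovered at 1 h, against 16% of all covered steps, 40% of those that stayed in state 11 and 46.1% of those that stayed in state 4. The dip was therefore shared by the 3 sets. Of 17881 uncovered member steps 7.3% were covered at 1 h and 13.7% at 4 h, against 0.609% and 1.26% of all uncovered steps. Such gains were 5.69% and 11% in steps that stayed in state 11, and 6.57% and 13.7% in steps that stayed in state 4. Of the covered member steps 29.3% were uncovered at 4 h, against 11.7% of all covered steps. That loss was 28.7% in steps that stayed in state 11 and 30.5% in steps that stayed in state 4. Gains and 4 h losses above the genome values were thus also shared by the 3 sets. The H3K4me1 list of 1 h was also shorter over the genome, at 6.68% against 7.28% untreated and 7.59% at 4 h, and its part in the dip was not tested. H3K27ac, the mark of active enhancers and promoters, covered 0.544%, 0.607% and 1.41% of the moved length, and the Polycomb mark H3K27me3 0.0800%, 0.0596% and 0.0869%. H3K4me3 covered none of it in untreated cells and 0.00435% at 4 h.

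Moved regions lay kilobases away from the promoter mark. The median distance from a region to the nearest untreated H3K4me3 peak was 8188 bp, with quartiles of 3335 and 17102 bp. None touched such a peak, 3151 (34.9%, 34.0 to 35.9) lay within 5 kb and 3900 (43.3%) beyond 10 kb, the farthest at 170271 bp. Measured to the H3K4me3 peaks of 1 h the median was 8224.5 bp and to those of 4 h 7841.5 bp. Regions that stayed in state 11 had a median of 7416.5 bp with 55 touching, those that stayed in state 4 a median of 7839 bp, and those that went from 4 to 11 a median of 8264 bp. Within 1 kb of H3K4me3 lay 494 moved regions (5.48%) and 796 that stayed in state 11 (9.67%), and within 500 bp 1.30% and 4.78%. Regions that stayed in state 11 were thus more often close to H3K4me3 than moved ones, while 5.36% of those that stayed in state 4 lay within 1 kb.

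Distance to H3K4me3 separated the members by H3K4me1 more than by H3K36 methylation or time. H3K4me1 covered 58.2% of member length in regions under 2 kb from H3K4me3 and 26.5% at 20 kb or more in untreated cells, and 41.4% and 18.2% at 1 h. The share of steps in state 4 at 1 h was 59.1% in the near class and 62.5% in the far one. H3K36me3 covered 42.1% and 50.5% of the same classes, and H3K36me2 94.3% and 96.5%.

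Most members lay inside long H3K79me2 domains together with state 11 steps that did not move. Peaks of H3K79me2 in untreated cells held 28889 member steps (99.8%), and 2956 of 13457 such peaks (22.0%) held at least 1 member. Those had a median width of 13488.5 bp, against 3492 bp for all, and up to 43 regions lay in 1 peak. A wider peak can hold more steps, so this contrast depends on width itself. Taken per step, the covering peak had a median width of 25260 bp for members. It was 23058 bp for steps that stayed in state 11 and 27569 bp for steps that stayed in state 4, so long domains were common to the 3 sets. Of the 3089 peaks with 5 or more state 11 steps, 2332 had some but not all of these steps moved, 649 had none and 108 had all, and the median share moved was 39.1%. The 3146 H3K79me2 domains with an H3K4me3 peak at 1 end only held 71.9% of member steps. There member steps had a median place of 0.545 of the domain, counted from the H3K4me3 end. The median was 0.567 for steps that stayed in state 11 and 0.519 for those that stayed in state 4. In the 4974 H3K36me3 domains oriented the same way, which held 16.2% of member steps, the median place was 0.366, 0.321 and 0.303. The direction of this offset from the domain's middle, at 0.5, thus depends on which mark defines the domain.

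Most member regions adjoined state 4 that was already there, and 5539 (61.4%) touched untreated state 11. Of the 9016 regions, 5288 (58.7%, 57.6 to 59.7) touched an untreated state 4 step, 1216 of them on both sides. Among 8228 regions that stayed in state 11, 1613 (19.6%, 18.8 to 20.5) touched such a step. Of all 14461 untreated runs of state 11, 7293 were next to state 4, so adjoining state 4 was common before LPS. Runs that moved in part were cut into pieces, and 69.4% of the regions that stayed touched untreated state 11. The part of this cut in the contrast with the regions that stayed was not tested. Of the sides of moved regions, 37.5% adjoined untreated state 11, 36.1% state 4, 12.1% state 7 and 7.96% state 12. Seen from the untreated map, 14461 runs of state 11 split into 3477 (24.0%) that went to state 4 whole, 4374 that went in part and 6610 with no member step. Runs next to state 4 went whole in 38.6% of cases, those with state 4 on both sides in 51.6% and those not next to it in 9.19%.

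The share of state 11 steps that moved was lower at each greater distance from untreated state 4. It was 67.0% for the 9331 steps that adjoined state 4, 53.0% from 200 bp to 1 kb, 45.0% from 1 to 2 kb, 32.8% from 2 to 10 kb and 19.1% of the 18827 steps beyond 10 kb. In the 1 h map, which the rule did not use, the shares in state 4 were 64.7%, 48.0%, 35.6%, 24.8% and 13.8% in the same order. Both maps share the untreated map as their start, so they are not independent of each other.

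**Figure D4:**
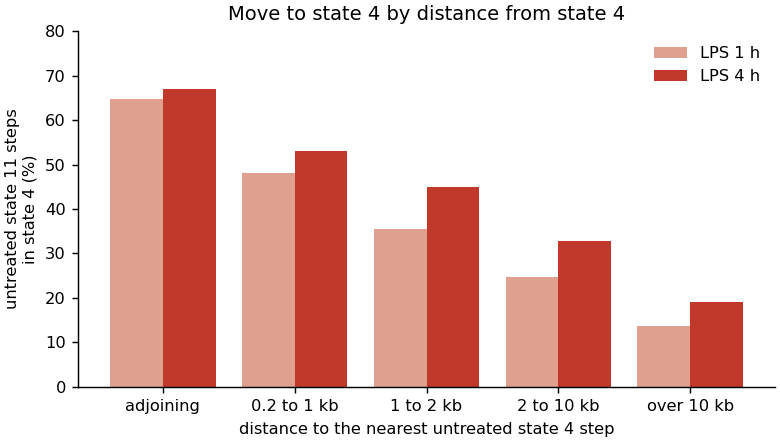
Percent of untreated state 11 steps that were in state 4 at LPS 1 h (light bars) and 4 h (dark bars), by distance to the nearest step that was already in state 4 in untreated cells. At 4 h the share was 67.0% for adjoining steps and 19.1% beyond 10 kb.

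Early and late members differed in these surroundings. Stretches of member steps in state 4 at 1 h touched untreated state 4 in 4147 of 6514 cases (63.7%, 62.5 to 64.8), and stretches still in state 11 at 1 h in 1046 of 3944 (26.5%, 25.2 to 27.9). In untreated cells H3K36me2 covered 98.0% of the early steps and 91.4% of the late ones, and H3K36me3 42.2% and 53.0%. At 1 h H3K36me2 covered 99.9% and 97.8%. Members next to state 4 were in state 4 at 1 h in 71.7% of steps, those not next to it in 47.0%. The longer regions were a little more often in state 4 at 1 h, with 55.9% of the steps in single-step regions and 62.8% in regions of 3 kb or more. The median distance to H3K4me3 was 8498.5 bp for early and 8524.5 bp for late stretches.

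PU.1, the macrophage lineage factor, was seldom found at moved regions. Its untreated peaks overlapped 197 of the 9016 (2.18%, 1.90 to 2.51), 233 of 8228 regions that stayed in state 11 (2.83%, 2.49 to 3.21) and 213 of 7682 that stayed in state 4 (2.77%, 2.43 to 3.16). By step, 1.08% of member steps held a PU.1 peak, against 2.71% of all steps. These intervals cover counting error over regions of 1 library and hold no spread between cultures, so they cannot show whether the sets differ. The regions of the sets also differ in length.

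After flavopiridol, H3K36me2 stayed over most of the moved length without LPS and covered less of it with LPS. Coverage was 92.6% after flavopiridol alone and 77.2% after flavopiridol and 4 h of LPS, beside 95.4% and 99.8% without the drug. Of 27632 covered member steps 6.33% were uncovered after flavopiridol, against 19.2% of all covered steps. Of 28909 covered at LPS 4 h, 22.7% were uncovered in the list with flavopiridol and LPS, against 40.5% of all covered steps. Steps that stayed in state 11 went from 71.4% after flavopiridol to 47.4% after flavopiridol and LPS, and steps that stayed in state 4 from 98.5% to 90.2%. Over the genome the values were 11.5% and 8.72%. Late members had 72.0% and early members 80.3% after flavopiridol and LPS.

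H3K4me1 covered 6.66% of the moved length after flavopiridol and 4.15% after flavopiridol and LPS, beside 38.3% and 35.6% without the drug. Covered member steps were uncovered in 85.1% and 91% of cases, against 36.3% and 50.2% of all covered steps. In steps that stayed in state 11 the shares were 79.6% and 88.4%, and in steps that stayed in state 4 they were 87.5% and 94%, so the loss was shared by the 3 sets. The flavopiridol lists held few peaks whose −log10 q reached 5. Those held 0.0738% and 0.0447% of the covered member length for H3K36me2 and 11.1% and 3.70% for H3K4me1, against 6.11% and 62.6% in untreated cells. The part of this lower significance of the flavopiridol lists in both results was not tested.

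**Figure D5:**
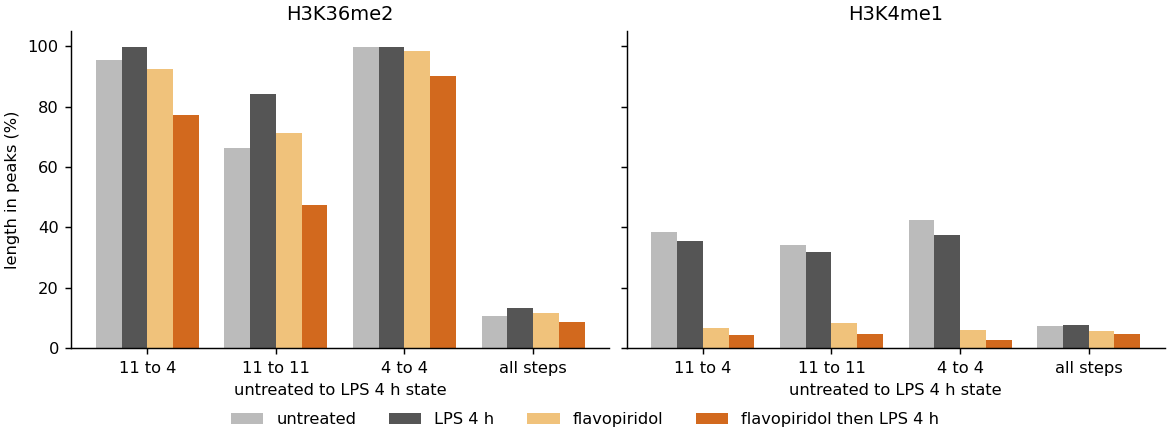
Percent of length inside H3K36me2 (left) and H3K4me1 (right) peaks in untreated cells, at LPS 4 h, after flavopiridol and after flavopiridol then LPS 4 h, for steps grouped by untreated and LPS 4 h state; each bar is 1 library. Over steps that went from 11 to 4, H3K36me2 was 92.6% after flavopiridol and 77.2% after flavopiridol and LPS.

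Single regions show how these values combine, with coordinates in mm9. The longest, chr9:65766201-65773400, spans 36 steps, of which 31 were in state 4 and 5 in state 11 at 1 h. It lay inside an H3K79me2 peak of 31642 bp, 7736 bp from H3K4me3, and was covered by H3K36me2 to 100% at all 3 times, while its H3K36me3 coverage was 40.6%, 18.2% and 0%. After flavopiridol H3K36me2 covered all of it, and after flavopiridol and LPS 74.6%.

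Regions of 5600 bp were found at chr3:41371801-41377400, chr12:107256401-107262000 and chr13:43526401-43532000. The first had no H3K36me3 at any time and 24 of its 28 steps in state 4 at 1 h. The second had H3K36me3 over 79.6%, 71.2% and 81.7% and 26 of its 28 steps still in state 11 at 1 h. The third, 31114 bp from H3K4me3, had H3K36me2 over 77.1% before LPS and 100% after it, and H3K36me3 over 82.9%, 85.8% and 47.8%. Its H3K36me2 peak was 27128 bp wide in untreated cells and 57498 bp at 4 h.

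Among the other 6 of the 10 longest, H3K36me2 covered each to 100% at the 3 times. At chr2:70610801-70616200 H3K36me3 covered 69.7%, 100% and 46.2%, and at chr3:22043201-22048200 it covered 42.4%, 0% and 64.9%. At chr17:79127401-79132400 it covered 33.6%, 27.5% and 32.4%. All 24 steps of chr17:66222001-66226800 and all 21 of chr4:101095801-101100000 were still in state 11 at 1 h. The former had H3K36me3 over 39.6%, 40.3% and 62.4%, and the latter, like chr13:108653401-108658000, had none. The longest regions therefore shared H3K79me2 and H3K36me2 and not a common course of H3K36me3.

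The longest region wholly in state 4 at 1 h was chr12:17702601-17706600, with H3K4me1 over 60.2% before LPS, 0% at 1 h and 1.65% at 4 h. The longest with neither state at 1 h was chr2:18302201-18303800, whose 8 steps were all in state 1 then, although H3K79me2 and H3K36me2 covered it to 100%. The longest with a PU.1 summit was chr2:32034001-32037800, with all 19 steps in state 11 at 1 h. Among regions of at least 1 kb, chr2:11420001-11421200 lay nearest to H3K4me3, at 31 bp, and chr5:5203601-5205400 farthest, at 154271 bp.

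Members were dense in a few places. The 100 kb window with the most was chr13:108569001-108669000, where 184 of 244 state 11 steps (75.4%) moved in 27 regions, 76.1% of them by 1 h, and none went from 4 to 11. State 4 there had 145 steps in untreated cells and 329 at 4 h. H3K79me2 covered 96.3 kb of that window before LPS and H3K36me3 4.52 kb. The next windows were chrX:74780601-74880600 with 143 of 262 steps moved, chr15:61905601-62005600 with 116 of 198, chr17:10410801-10510800 with 106 of 192 and chrX:101543801-101643800 with 100 of 146. In the chromosome 15 window 47.4% of the moved steps were in state 4 at 1 h and H3K36me3 covered 80.7 kb. The windows thus ranged from nearly no H3K36me3 to most of the window under it. The regions were not placed in genes, since an mm9 gene annotation was not used here.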

How the data were processed

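The submitters' processing notes name Bowtie 1.0.1, MACS2 and the build mm9. The version and settings of MACS2, the control, the read depth and the segmentation tool were not given in the sources used here. Each library has its own deposited list, with broad histone peaks, narrow PU.1 peaks and a −log10 q per peak that is the authors' deposited value. State labels are the authors' deposited numbers per 200 bp step, with 27 states at each of 3 times and 18 in a further untreated map.

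Coverage is the share of base pairs inside peaks of a list. A step counted as covered with at least 100 bp in a peak, gained or lost against the untreated list, and overlap meant at least 1 bp. Distances run edge to edge. Oriented domains are untreated peaks of at least 5 kb with H3K4me3 within 5 kb of exactly 1 end. Printed intervals are 95% Wilson intervals on counts of regions or stretches. With 1 library per mark and condition no test was run. Named regions are the 10 longest, the longest in each class of state at 1 h, of PU.1 summit and of H3K36me2 with flavopiridol, the nearest and farthest from H3K4me3 of at least 1 kb, and the 5 densest windows of 100 kb. The members and lists were chosen with earlier results of these data known. Classes of members by distance, length and neighbouring state and the ranking of moves between states were chosen with the data in view. The tools were numpy 2.4.6, scipy 1.17.1 and matplotlib 3.10.9 under Python 3.11.15. The step, run, distance and interval functions were tested on simulated data. The alternatives tried were other joins, minimum lengths, peak filters, distance and overlap definitions, sequences and the 1 h map.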

Additional observations from a re-analysis of the deposited data

Results flagged for a closer look

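H3K36me2 coverage of the moved steps differed between LPS 4 h and no LPS by 4.39 percentage points without flavopiridol and by -15.4 points with it, so the 2 differences have opposite signs. This difference between drug conditions was not tested, since each rests on single libraries. Over all steps the differences were 2.57 and -2.83 points, over steps that stayed in state 11 17.8 and -24.1, and over steps that stayed in state 4 0.0492 and -8.33. The signs were thus opposite in these 3 sets and over the whole genome, but not over steps that went from 4 to 11, where coverage was 99.2% untreated and 98.6% at LPS 4 h, and 91.0% with flavopiridol and 69.4% with flavopiridol and LPS. Flavopiridol and LPS lists also differed in the share of covered length in peaks whose −log10 q reached 5, as given with the flavopiridol values above, and the part of this was not tested.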

How the results depend on the processing

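Of 42 alternatives to 12 results, 13 left the value within its interval and 29 moved it outside. Each interval treats steps or regions as independent counts, although many of them adjoin each other, and covers counting error at most. For coverage and for the share of member steps in state 4 at 1 h, the percentage was treated as if counted over the 9016 regions. Those intervals only sort the alternatives and are not a counting error of steps or regions. No interval holds spread between cultures, so a moved value is not thereby shown to differ beyond such spread. The median place along domains went from below the domain's middle to above it when H3K79me2 domains replaced H3K36me3 domains. The share of state 11 steps that moved, 40.4%, was 41.3% inside state 11 runs, 27.1% among steps in state 11 at 1 h, and, chosen after seeing the data, 41.1% without chromosome X and 34.4% with the 1 h map in place of 4 h. The ratio of 19.1 was 30.6 among steps with the same state on both sides and 9.22 with the 1 h map, and leaving out chromosome X, also tried on it and on the share in state 4 at 1 h, moved neither; both alternatives were chosen after seeing the data. The share in state 4 at 1 h was 62.2% in regions of at least 1 kb. Median length was 600 bp joined across 200 bp and 600 bp joined across 1 kb. With only peaks of −log10 q of at least 5, coverage at 1 h was 30.6% for H3K36me3, 19.8% for H3K36me2 and 85.0% for H3K79me2, and H3K36me2 after flavopiridol and LPS 0.0345%. With peaks of at least 1 kb, H3K36me3 was 47.6% and H3K36me2 after flavopiridol and LPS 76.1%. In regions of at least 1 kb, H3K36me2 was 99.2% and H3K79me2 99.97% at 1 h, and H3K36me2 after flavopiridol and LPS 78.8%. Median distance to H3K4me3 was 8970.5 bp at −log10 q of at least 5, 9870.5 bp for peaks of at least 1 kb, 9783.5 bp centre to centre and 8812 bp over steps. PU.1 was 1.13% by summit, 1.79% at −log10 q of at least 5 and 1.08% over steps. State 4 lay within 1 kb of 67.4% of regions and touched 55.6% of those of at least 1 kb. Median place was 0.305 in domains of at least 10 kb and, chosen after seeing the data, 0.545 in H3K79me2 domains. Coverage at −log10 q of at least 5 uses fewer peaks, and the cause of the other shifts was not tested. No paired analysis was possible because each mark and condition has 1 library. The planned gene lists were not run, since no annotation of mm9 was used here. Depth is unknown, so what it limits could not be measured.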
